A study of Homo sapiens with 6 samples.

Results

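Transient receptor potential (TRP) channels are cation channels of the plasma membrane and of lysosomes. They were examined here in U251 cells, an established human glioma line, after treatment with 6-shogaol, a pungent enone of dried ginger. The genes were the 9 rows of the expression table whose symbol is TRPV1, TRPV2, TRPV4, TRPA1, TRPM2, TRPM4, TRPM7, TRPC1 or MCOLN1, out of 60612 genes in all. The rule takes genes by symbol alone and uses no measured value, although the list was drawn up with earlier results of these data known. RNA sequencing covered 3 libraries of cells given 6-shogaol for 24 h and 3 control libraries of cells kept without it. Both groups carry the genotype label WT and shared medium, serum and time point. The labels give the dose as 60 and write its unit as μm. Whether the replicates came from separate cultures is not given, and the spread behind each p-value may therefore be technical. In bulk RNA, fewer cells with a transcript and less of it per cell cannot be told apart.

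TRP channels open in response to temperature, chemicals, lipids or changes inside the cell, and most of them let calcium in. TRPV1, the receptor of capsaicin, is known as a target of gingerols and shogaols. TRPA1 is opened by electrophiles that modify its cysteines, and both channels are best known from pain-sensing neurons. In gliomas several TRP channels of other subfamilies have been studied for roles in calcium entry, growth and migration.

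The libraries held 43516840 to 60018999 counts, and a gene with 0 counts in a library could have had up to 0.05 to 0.0689 CPM there (counts scaled to library size, at the floor of 3 counts, which covers counting error only). All 7 astrocytic glioma markers (VIM, NES, GFAP, S100B, CD44, SOX2 and SOX9) had counts in every library, with a summed level of 6941 to 11060 CPM with 6-shogaol and 8458 to 8621 CPM in controls. Of these GFAP, the intermediate filament of astrocytes, fell to 8.88 ± 0.424 CPM with 6-shogaol, against 27.3 ± 5.73 CPM in controls (SD, n = 3 each, edgeR adjusted p = 0.00655), and NES, another intermediate filament gene, fell by 0.42 on the log2 scale (edgeR adjusted p = 0.0484). The other 5 did not pass, with log2 fold changes of 0.25 for CD44, 0.05 for VIM, -0.24 for SOX9, -0.33 for SOX2 and -0.64 for S100B. Among neuronal markers, SCN10A and CALCA, which mark pain-sensing neurons, had 0 counts in all libraries. The 5 neuronal markers summed to 61.0 to 74.5 CPM with 6-shogaol and 52.3 to 55.0 CPM in controls, most of it SYT1. Of the 3 endothelial markers PECAM1, CDH5 and VWF, only CDH5 had counts in every library, and the list summed to 0.538 to 1.08 CPM with 6-shogaol and 2.77 to 2.93 CPM in controls. The sums of the microglial, oligodendrocyte and epithelial lists were at most 4.03 CPM in any library. The part of these differences in the results below was not tested. Principal component 2, with 20.6% of the variance, placed 6-shogaol replicate 1 at 39.7, while its neighbour among the 5 remaining libraries was at 18.7 and the lowest at -20.5. Results that rest on this library are also given without it.

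The 9 channels fell into a detected and a nearly silent set. MCOLN1, TRPM4, TRPM7, TRPC1, TRPV1 and TRPV2 had counts in all 6 libraries. TRPM2 and TRPV4 each had counts in 1 library, and TRPA1 in 0. All 6 detected channels passed the filter on low counts and were tested in edgeR's quasi-likelihood test, and the other 3 did not pass it. Of the 6 tested channels 0 were called higher and 0 lower at an adjusted p under 0.05 (edgeR, Benjamini-Hochberg over all genes tested). Over all 19279 genes tested, 1.67% were called higher and 1.71% lower, together 3.38%. At an unadjusted p under 0.05 edgeR had 3 channels higher with 6-shogaol, TRPM4, TRPM7 and MCOLN1, and 0 lower, against 10.4% and 9.95% of all genes. DESeq2 called 1 channel, TRPM4, higher at an adjusted p under 0.05, where it called 6.00% of the 15523 genes it gave an adjusted p higher and 6.02% lower, and limma on log2 FPKM called 0.

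**Figure D1:**
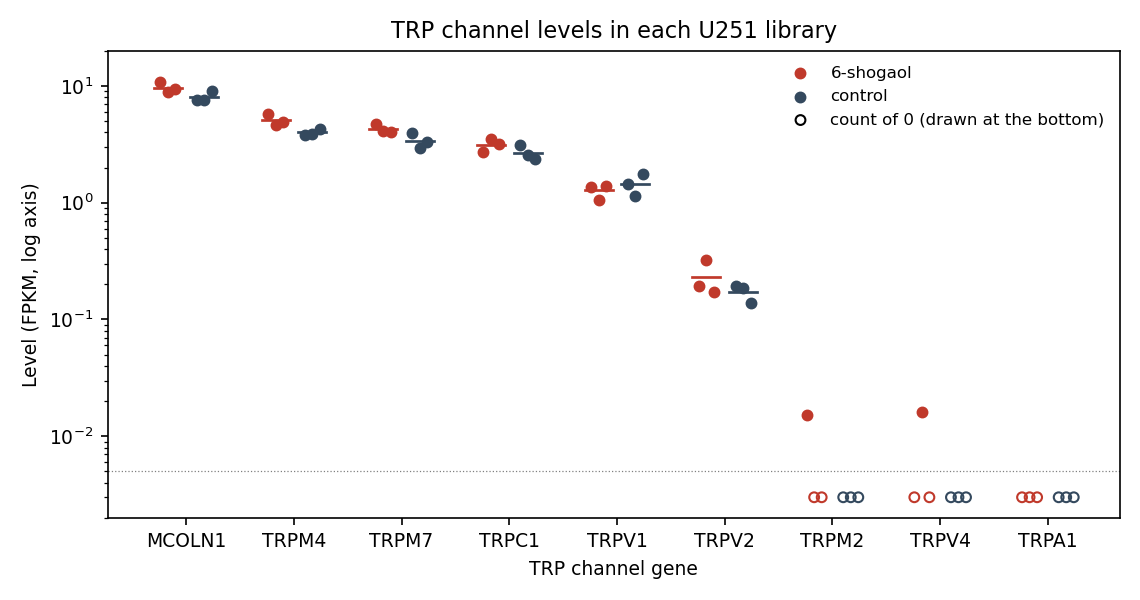
Level of each of the 9 TRP channel genes in every library, in FPKM on a log axis, with 6-shogaol libraries in red left of control libraries in blue, bars at the mean of 3 libraries and open circles below the dotted line for counts of 0. MCOLN1 was highest at 7.50 to 10.8 FPKM, TRPV1 stood between 1.06 and 1.76 FPKM, and TRPA1 had 0 counts in all libraries.

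Among the sensory channels, the pungent receptor TRPV1 (ENSG00000196689, chromosome 17, 3565444 to 3597098, minus strand, build taken as GRCh38) was transcribed in both groups. It stood at 1.36, 1.06 and 1.40 FPKM (fragments per kilobase of exon, scaled to library size) in 6-shogaol replicates 1, 2 and 3, against 1.45, 1.14 and 1.76 FPKM in control replicates 1, 2 and 3. The groups overlapped, with the highest level in control replicate 3 and the lowest in 6-shogaol replicate 2. TRPV1 averaged 1.27 ± 0.187 FPKM with 6-shogaol and 1.45 ± 0.311 FPKM in controls (mean ± SD, n = 3 each), and its control mean lay above 61.4% of the 29220 genes with counts in controls. Its log2 fold change was -0.21 (95% interval -0.65 to 0.23, SE 0.19, edgeR adjusted p = 0.596). The interval spans 0.636 to 1.18 times the control level. TRPV1 shares 4.38% of its exon length with SHPK, the neighbouring sedoheptulokinase gene on the same strand, whose reads may be divided between the genes. In fits without 1 library the log2 fold change of TRPV1 ran from -0.35 without control replicate 2 to -0.05 without control replicate 3.

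TRPA1, the electrophile-gated channel (ENSG00000104321, chromosome 8, 72019917 to 72075584, minus strand), had 0 counts in each of the 3 6-shogaol libraries and in each of the 3 controls. At this depth a level of TRPA1 above the floor given earlier was not detected in any library. TRPV4, a channel opened by osmotic swelling and warmth (ENSG00000111199, chromosome 12, 109783087 to 109833406), had 4 counts in 6-shogaol replicate 2 and 0 in the other 2 treated libraries, against 0 in each of the 3 controls. These 4 counts correspond to 0.0797 CPM in that library, and the group mean stayed below the floor, so no fold is given.

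TRPV2, a relative of TRPV1 that capsaicin does not open (ENSG00000187688, chromosome 17, 16415571 to 16437003, plus strand), was the lowest of the detected channels. It had 44, 66 and 31 counts in 6-shogaol replicates 1, 2 and 3, against 42, 46 and 34 counts in control replicates 1, 2 and 3. In FPKM it averaged 0.230 ± 0.0814 with 6-shogaol and 0.172 ± 0.0304 in controls (SD, n = 3 each). In CPM only 6-shogaol replicate 2 (1.32) lay above the highest control (0.812). Its log2 fold change of 0.37 had the widest interval of the 6 channels tested, -0.49 to 1.24 (SE 0.37, edgeR adjusted p = 0.631), and it was 0.05 without 6-shogaol replicate 2.

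The TRPM channels differed among themselves in level. TRPM4, a channel that calcium opens and that conducts sodium and potassium rather than calcium (ENSG00000130529, chromosome 19, 49157741 to 49211836, plus strand), had 43.9, 36.6 and 38.3 CPM in 6-shogaol replicates 1, 2 and 3, against 30.3, 30.9 and 33.1 CPM in control replicates 1, 2 and 3. Every treated library lay above every control, a pattern in CPM that 14.0% of all genes tested showed in this direction and 13.9% in the other, and TRPM4 was the only member with it on that scale. In FPKM, where 15.9% of genes showed it, 2 members did, TRPM4 and TRPM7. In FPKM it averaged 5.11 ± 0.583 with 6-shogaol and 3.99 ± 0.217 in controls (SD, n = 3 each). The log2 fold change was 0.33 (95% interval 0.11 to 0.55, SE 0.09), and edgeR gave an unadjusted p of 0.00936 and an adjusted p of 0.111. DESeq2 gave the same channel a log2 fold change of 0.33 and an adjusted p of 0.0442, the only pass among its 15 alternatives (adjusted p from 0.0442 to 0.285). Without 6-shogaol replicate 1, which held the highest level, the log2 fold change was 0.25 (edgeR adjusted p = 0.134).

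TRPM7, a magnesium- and zinc-permeable channel fused to a protein kinase (ENSG00000092439, chromosome 15, 50552473 to 50686797, minus strand), had 66.9, 61.2 and 58.4 CPM in 6-shogaol replicates 1, 2 and 3, against 58.7, 43.5 and 48.4 CPM in control replicates 1, 2 and 3. In CPM the groups touched, because control replicate 1 lay just above 6-shogaol replicate 3, while in FPKM that control, at 3.96, lay just below the same treated library, at 4.01, and the groups did not overlap. In FPKM it averaged 4.28 ± 0.362 with 6-shogaol and 3.40 ± 0.518 in controls (SD, n = 3 each). The log2 fold change was 0.31 (95% interval 0.02 to 0.59), with an unadjusted p of 0.0372 and an adjusted p of 0.211 in edgeR, and it reached 0.44 without control replicate 1 (edgeR adjusted p = 0.135). TRPM2, which ADP-ribose opens during oxidative stress (ENSG00000142185, chromosome 21, 44350163 to 44443081, plus strand), had 7 counts in 6-shogaol replicate 1 and 0 in the other 2 treated libraries, against 0 in each control. Those 7 counts correspond to 0.124 CPM, and the treated mean of 0.0413 CPM was below the floor.

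TRPC1, a subunit of receptor- and store-operated calcium channels (ENSG00000144935, chromosome 3, 142724034 to 142807888, plus strand), had 2.72, 3.48 and 3.17 FPKM in 6-shogaol replicates 1, 2 and 3, against 3.15, 2.54 and 2.36 FPKM in control replicates 1, 2 and 3. The groups overlapped, with 6-shogaol replicate 1 below control replicate 1. Its log2 fold change was 0.20 (95% interval -0.17 to 0.56, SE 0.16, edgeR adjusted p = 0.539). Without 6-shogaol replicate 2 it was 0.10, and without control replicate 1 it was 0.33.

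MCOLN1 encodes TRPML1, the lysosomal channel that releases calcium when the lipid PI(3,5)P2 binds it, and whose loss causes mucolipidosis type IV (ENSG00000090674, chromosome 19, 7522624 to 7534009, plus strand). It had the highest level of the 9 genes, with 10.8, 8.81 and 9.36 FPKM in 6-shogaol replicates 1, 2 and 3, against 7.64, 7.50 and 8.96 FPKM in control replicates 1, 2 and 3. Control replicate 3 overlapped the treated libraries and the other controls lay below them. The means were 9.66 ± 1.04 FPKM with 6-shogaol and 8.03 ± 0.806 FPKM in controls (SD, n = 3 each). The log2 fold change was 0.24 (95% interval 0.0035 to 0.48, SE 0.10), with an unadjusted p of 0.0475 and an adjusted p of 0.239 in edgeR. It was 0.17 without 6-shogaol replicate 1 (edgeR adjusted p = 0.367) and 0.32 without control replicate 3 (edgeR adjusted p = 0.206). MCOLN1 shares 0.152% of its exon length with PNPLA6 on the same strand, the neuropathy target esterase gene, with a mean of 10529 counts.

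**Figure D2:**
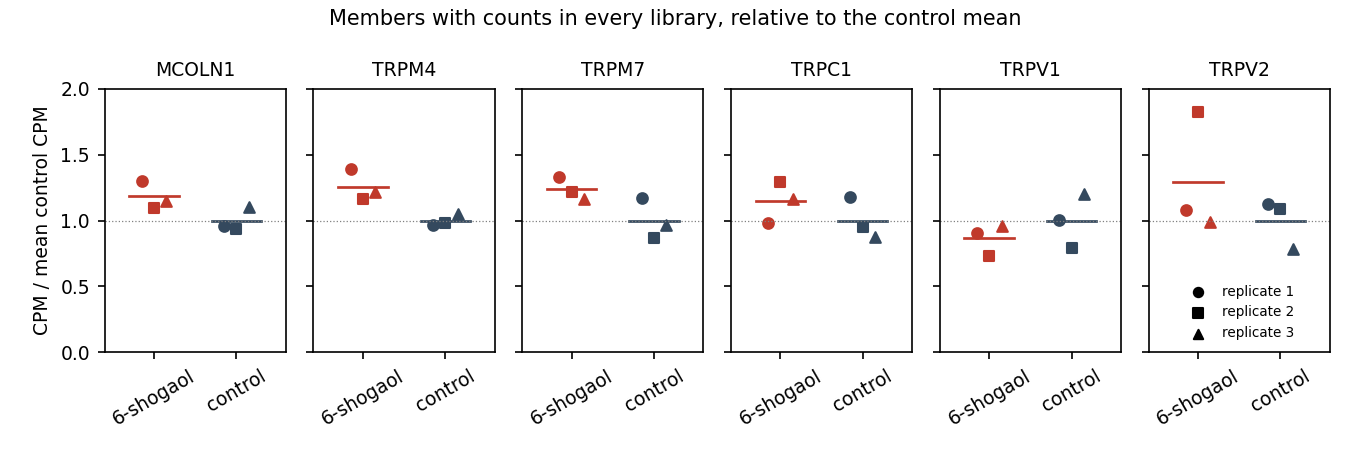
CPM of the 6 detected channels divided by the mean control CPM of the same gene, with 6-shogaol left of control, bars at group means and marker shapes for replicate numbers. TRPM4 was the only channel whose treated libraries all lay above its controls in CPM, and 6-shogaol replicate 1 was the highest library for MCOLN1, TRPM4 and TRPM7.

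The 3 channels with an unadjusted p under 0.05 shared a feature of their libraries. MCOLN1, TRPM4 and TRPM7 each had their highest CPM in 6-shogaol replicate 1, the library that stood apart on component 2. Taking out the highest treated library lowers a log2 fold change by construction. Without that library the values were 0.17, 0.25 and 0.25 for MCOLN1, TRPM4 and TRPM7. Only TRPM4 still had an unadjusted p under 0.05 in edgeR, with an edgeR adjusted p of 0.134. Control replicate 2 lay below the control mean CPM of each of these channels, so leaving it out also lowers their values by construction. Without it they were 0.20, 0.32 and 0.22 for MCOLN1, TRPM4 and TRPM7. Again only TRPM4 had an unadjusted p under 0.05 in edgeR (edgeR adjusted p = 0.285).

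In FPKM, which is per length, the order of the mean levels over all libraries was MCOLN1, TRPM4, TRPM7, TRPC1, TRPV1 and TRPV2. MCOLN1 stood above TRPM4 in 6 of 6 libraries, at 1.89 times its mean with 6-shogaol and 2.01 times in controls. TRPM4 and TRPM7 were neighbours that did not separate beyond their spread, TRPM4 being higher in 5 of 6 libraries. TRPM7 and TRPC1 separated with 6-shogaol, while their ranges overlapped in controls. TRPC1 stood above TRPV1, and TRPV1 above TRPV2, with no overlap of ranges in either group.

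**Figure D3:**
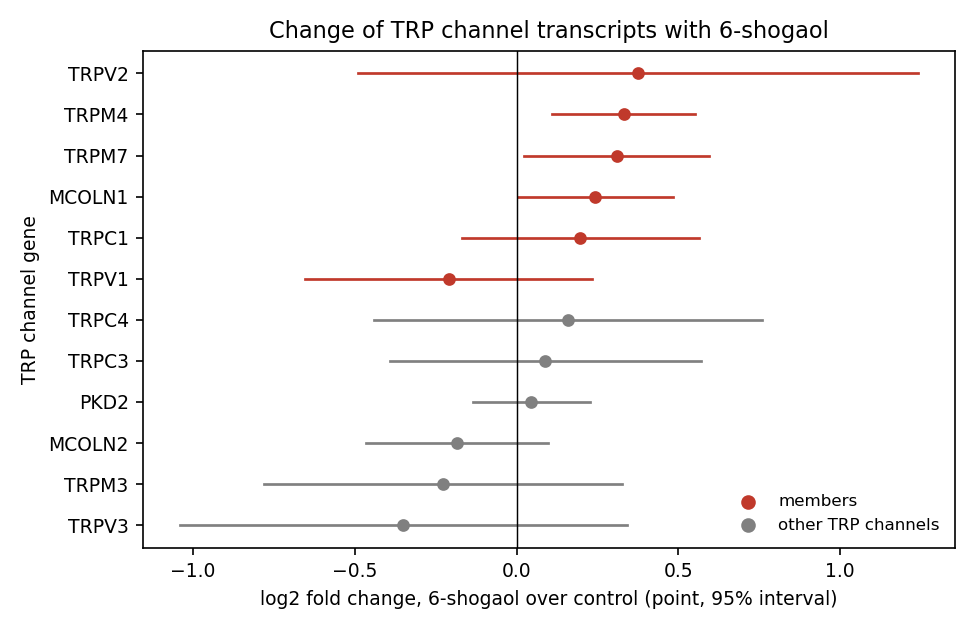
Log2 fold change of the 12 TRP channel genes that could be tested, 6-shogaol over control, with points for the edgeR estimate and lines for the 95% interval (members in red, other TRP channels in grey). Only the intervals of TRPM4, TRPM7 and MCOLN1 lie above 0, and none of the 12 passed after adjustment.

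The wider superfamily, with 18 further genes, gave the members a frame. Of these 18 genes 6 had counts in every library and were tested, 7 had counts in 1 to 5 libraries, and 5 (TRPC6, TRPC7, TRPV5, TRPV6 and TRPM1) had 0 counts throughout. Summed over all 27 genes, the FPKM was 40.7, 36.5 and 37.7 in 6-shogaol replicates 1, 2 and 3, against 33.9, 33.0 and 35.6 in control replicates 1, 2 and 3. The 9 members made up 61.0% to 62.8% of that sum with 6-shogaol and 55.3% to 59.6% in controls. PKD2, the polycystin channel of primary cilia, took the largest share of any of the 27 genes, on average 29.2% with 6-shogaol and 31.3% in controls. MCOLN1 came next in the mean shares, with 25.2% with 6-shogaol and 23.5% in controls. Of the 6 further channels tested edgeR called 0, with 0 at an unadjusted p under 0.05, and DESeq2 and limma called 0 as well. Their median log2 fold change was -0.07, against 0.28 for the 6 members tested and 0.00 for all genes tested. PKD2 had a value of 0.05 (-0.0074 without control replicate 1), and MCOLN2, the relative of MCOLN1 in endosomes and lysosomes, of -0.18 (edgeR adjusted p = 0.452). The menthol and cold receptor TRPM8, named after its values were seen, had 8, 4 and 18 counts in 6-shogaol replicates 1, 2 and 3, against 0, 10 and 8 in control replicates 1, 2 and 3, and was too low to test.

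In the deposited annotation all 9 members carry the Gene Ontology term calcium ion transmembrane transport and 8, all but MCOLN1, the term calcium channel activity. TRPM4 is among those 8, although it is known to conduct monovalent cations. TRPV1, TRPV2, TRPV4 and TRPA1 make up the 4 members placed in the KEGG pathway of TRP regulation by inflammatory mediators, and 3 of these 4 stood at or below 0.323 FPKM in every library.

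RefSeq promoters (GRCh38.p14) were matched for 6 of the 9 members. The 250 bases upstream of the start are shown for MCOLN1, TRPM7 and TRPM4, the 3 channels with an unadjusted p under 0.05, and each is read 5′ to 3′ on the gene's strand. Capitals mark the E-box core CACGTG and its extension GTCACGTG on either strand, the letters that TFEB and TFE3, regulators of lysosomal genes, are known to prefer.
MCOLN1, chr19:7522374-7522623, plus strand: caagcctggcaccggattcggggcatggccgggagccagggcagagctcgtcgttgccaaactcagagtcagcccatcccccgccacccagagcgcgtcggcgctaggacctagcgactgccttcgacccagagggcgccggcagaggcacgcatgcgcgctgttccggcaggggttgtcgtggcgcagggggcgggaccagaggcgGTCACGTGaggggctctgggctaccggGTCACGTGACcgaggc
TRPM7, chr15:50686798-50687047, minus strand: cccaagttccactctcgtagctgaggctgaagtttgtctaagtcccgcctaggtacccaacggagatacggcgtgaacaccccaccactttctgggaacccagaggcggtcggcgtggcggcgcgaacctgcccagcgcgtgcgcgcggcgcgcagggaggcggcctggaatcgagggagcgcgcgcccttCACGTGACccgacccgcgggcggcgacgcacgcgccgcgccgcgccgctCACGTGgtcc
TRPM4, chr19:49157542-49157791, plus strand: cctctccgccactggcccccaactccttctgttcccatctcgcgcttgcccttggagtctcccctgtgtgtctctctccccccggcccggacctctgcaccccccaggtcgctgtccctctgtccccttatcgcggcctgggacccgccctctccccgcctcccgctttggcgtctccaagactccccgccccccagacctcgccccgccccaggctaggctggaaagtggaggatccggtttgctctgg
MCOLN1 holds 2 copies of CACGTG, beginning 41 and 14 bases upstream of the start, both within GTCACGTG. TRPM7 holds 2 copies, beginning 59 and 10 bases upstream, of which the farther one lies within GTCACGTG read on the other strand. TRPM4, whose RefSeq start lies just inside the deposited gene span, holds 0 copies and has 3 GC boxes (GGGCGG on either strand). MCOLN1 and TRPM7 have 1 GC box each, TRPC1 has 2 in its promoter 1, and TRPM2 has 1 in each of promoters 2 and 3. Among the other matched members, TRPM2 holds 1 copy of CACGTG, beginning 175 bases upstream of the start of promoter 2 of its 3, and TRPV1 and TRPC1 hold 0. Of 35116 RefSeq promoters of this length 6.34% hold CACGTG at least once and 0.535% at least 2 times. GTCACGTG, which contains CACGTG, is held by 2.16%. GGGCGG is held at least once by 42.6% and at least 2 times by 24.3%. These shares are not matched for base content. Over these 250 bases MCOLN1 and TRPM7 are each 70.8% G or C and TRPM4 is 69.2%, against a median of 58.0% over all promoters. The antioxidant response core TGACNNNGC, found in 10.9% of promoters, and the ATF4 composite element TGATGNAA, found in 3.14%, matched none of the promoters of the 6 members on either strand. A match or its absence in these letters is a description of the sequence and says nothing of binding.

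The genes around MCOLN1 in its lysosomal role were tested as a list of 10, which held the kinase PIKFYVE with its partners FIG4 and VAC14, TFEB, TFE3 and MITF, the two-pore channels and LAMP1. edgeR called 0 of the 10, with 1 higher and 0 lower at an unadjusted p under 0.05, against 10.4% and 9.95% of all genes tested. DESeq2 called 1 higher, where it called 6.00% of the genes it gave an adjusted p higher and 6.02% lower. limma on log2(FPKM + 1) called 0, and the limma fits on log2(FPKM + 0.1) and with no filter called 1 higher each. The list median was 0.06. TPCN1, a lysosomal cation channel, had 45.9, 45.6 and 46.4 CPM in 6-shogaol replicates 1, 2 and 3, against 37.9, 36.9 and 37.0 CPM in control replicates 1, 2 and 3. Its groups did not overlap in CPM, a pattern that 14.0% of all genes tested showed in this direction and 13.9% in the other. Its log2 fold change of 0.30 stood just outside the threshold (edgeR adjusted p = 0.0564, DESeq2 adjusted p = 0.00656). LAMP1, a major lysosomal membrane protein, had a value of 0.42 (edgeR adjusted p = 0.276). The transcript of TFEB had a value of 0.03 and that of TFE3 of -0.15, and neither passed.

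Genes that fill, empty or refill calcium stores formed a list of 18. Of its 18 tested genes of store-operated entry, stores and pumps edgeR called 2 higher and 0 lower, and the median log2 fold change was 0.16. Over all genes tested edgeR called 1.67% higher and 1.71% lower. ATP2B1, a plasma membrane pump that exports calcium, had 74.9, 80.3 and 82.9 CPM in 6-shogaol replicates 1, 2 and 3, against 58.6, 59.5 and 62.0 CPM in control replicates 1, 2 and 3. It rose by 0.40 on the log2 scale (SE 0.07, adjusted p = 0.0343 in edgeR). Its groups did not overlap in CPM, which held in this direction for 14.0% of all genes tested. ITPR1, a receptor of inositol trisphosphate that releases calcium from the endoplasmic reticulum, had 32.4, 33.5 and 31.5 CPM in 6-shogaol replicates 1, 2 and 3, against 25.1, 23.8 and 25.9 CPM in control replicates 1, 2 and 3. Its rise of 0.38, again without overlap, stood at the threshold (SE 0.08, adjusted p = 0.0498 in edgeR). ITPR1 lost its call in each of the 6 fits without 1 library (edgeR adjusted p from 0.063 to 0.184) and ATP2B1 in 5 of them, all but the one without 6-shogaol replicate 1. Their log2 fold changes in these fits were 0.35 to 0.41 for ITPR1 and 0.37 to 0.44 for ATP2B1. ORAI3, a pore subunit of store-operated entry, had the largest value of the list at 1.20, with overlapping groups (edgeR adjusted p = 0.166), and 52.9% of its exon length is shared with AC135048.1, a same-strand gene with a mean of 46 counts. ATP2B4, a second plasma membrane pump, had a value of 0.46 and did not pass. STIM1 and ORAI1, the sensor and main pore of store-operated entry, had values of -0.09 and 0.08.

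Among 9 genes of magnesium transport, the function TRPM7 serves, edgeR called 1 higher and 0 lower, against 1.67% and 1.71% of all genes tested. The list median was 0.15. NIPA1, a magnesium transporter, had 79.4, 93.2 and 85.7 CPM in 6-shogaol replicates 1, 2 and 3, against 53.7, 55.0 and 52.9 CPM in control replicates 1, 2 and 3. All treated libraries stood above all controls in CPM, as they did for 14.0% of all genes tested. NIPA1 rose by 0.68 on the log2 scale (SE 0.08, adjusted p = 0.0102 in edgeR). The call was lost without control replicate 1 and without control replicate 2 (edgeR adjusted p = 0.0552 and 0.0555), with values of 0.68 and 0.69. MAGT1, which is linked to magnesium uptake, had a value of -0.37 with overlapping groups (edgeR adjusted p = 0.504).

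The other companion lists held 0 called genes in edgeR. Their counts below stand against 10.4% of all genes tested higher and 9.95% lower at an unadjusted p under 0.05 in edgeR. DESeq2 called 6.00% higher and 6.02% lower. Of 17 tested genes of Gq, phospholipase C, PIP2 synthesis and regulatory kinases, which act upstream of TRP channels, 2 were higher and 3 lower at an unadjusted p under 0.05, and DESeq2 called 3 lower and limma on log2(FPKM + 1) 0. Their median was -0.04. CALM2, 1 of 3 calmodulin genes in the list that encode the same protein, had the largest value at -0.51 (edgeR adjusted p = 0.0552), and PLCD3, a phospholipase C, one of -0.35. Of 13 tested genes of calcineurin, NFAT and CaM kinases 2 were higher and 2 lower by that measure, DESeq2 called 1 higher and limma 0, and the median was 0.05. NFATC3, a calcium-regulated transcription factor, had a value of -0.45, and PPP3CB, a calcineurin catalytic subunit, of 0.25. However, 33.0% of the exon length of NFATC3 is shared with other genes. AC020978.5 on the opposite strand covers 31.8% of it and AC020978.7 on the same strand 15.7%, in part the same bases. The largest value of this list was that of NFATC2, at 0.94 (edgeR adjusted p = 0.0858). NFATC2 was low, at 1.97 CPM with 6-shogaol and 1.03 CPM in controls on average. RCAN1, whose transcript is a known target of calcineurin and NFAT, had a value of 0.03 (edgeR adjusted p = 0.912). Of 7 tested ADP-ribose enzymes 3 were higher and 1 lower by that measure. DESeq2 called 1 of them higher and 1 lower, limma 1 higher, and the median was 0.05. The values were 0.36 for the ADP-ribose hydrolase gene NUDT5, which shares 11.4% of its exon length with antisense neighbours, and 0.36 for the deacetylase gene SIRT1. CD38, which makes ADP-ribose from NAD, had 0 counts in all libraries. Of 7 tested scaffolds and partners 0 were higher and 2 lower by that measure, DESeq2 called 1 lower and limma 0, and the median was -0.05. The water channel gene AQP1 stood at -0.52 and the scaffold gene HOMER3, which shares 8.85% of its exon length with its antisense gene, at -0.40 (edgeR adjusted p = 0.209 and 0.118).

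**Figure D4:**
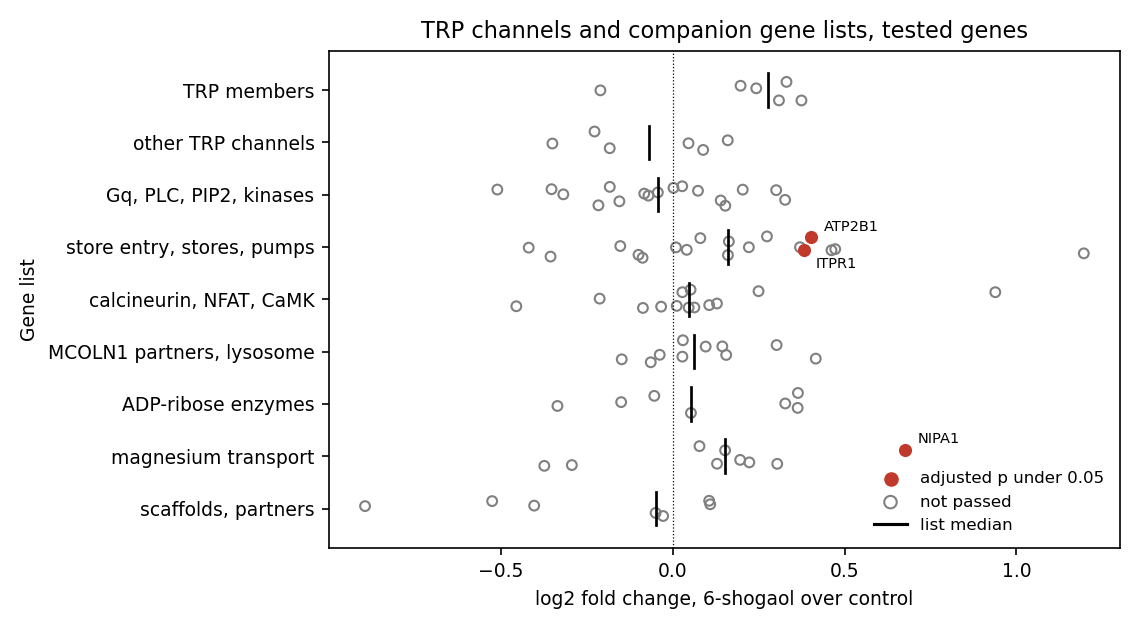
Log2 fold change, 6-shogaol over control, of every tested gene in the TRP member list and the 8 companion lists, with red points for genes at an edgeR adjusted p under 0.05 and black bars at list medians. Only ATP2B1, ITPR1 and NIPA1 passed, and 0 of the 6 members tested did.

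By the rule on likeness, the genes whose pattern was closest to TRPM4, the member with the smallest p, were STX1A, KCNN4 and CDH4. Their log2 CPM correlated with that of TRPM4 over the 6 libraries with Pearson's r of 0.997, 0.997 and 0.994, and 121 of 14708 genes compared had an r over 0.95. All genes share the same libraries, so these values are a description. STX1A, a membrane fusion protein, had a log2 fold change of 0.56 and KCNN4, a calcium-activated potassium channel, of 0.33, and neither passed (edgeR adjusted p = 0.0845 and 0.119).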

How the data were processed

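RNA was extracted with Trizol and made into libraries with a SMARTER mRNA-Seq kit, per the labels' protocols. The authors deposited raw counts per gene and, per the file headers, deposited FPKM values with a copy of the counts (0 values differed). An FPKM of 0.0001 stands for most counts of 0. Aligner, counter and strand setting are not given in the sources used here. The submitters' processing notes name the mouse builds GRCm38 and mm10, yet all 60612 identifiers are human Ensembl ones. All 9 members are in GENCODE release 29 (GRCh38), 2 with identical coordinates. Coordinates are as deposited, and their human build is inferred from closeness to that release, not stated by the submitters. For the 6 detected members the length implied by counts and FPKM was 1.18 to 1.23 times the union of GENCODE 29 exons.

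Counts were filtered with filterByExpr (19279 genes left), scaled by TMM and tested with edgeR 4.0.16 (glmQLFit, glmQLFTest, Benjamini-Hochberg, threshold 0.05) in R 4.3.3. CPM are TMM-scaled, and SE is the absolute log2 fold change over the square root of F. Alternatives used DESeq2 1.42.0, limma 3.58.1 on log2(FPKM + 1) or log2(FPKM + 0.1), other scalings and filters, a replicate block and fits without 1 library. Only the main edgeR fit, the DESeq2 fit and a limma fit on log2(CPM + 1) were also run on simulated counts. Exon overlap was taken over neighbours averaging 10 counts or more. Members and lists were chosen with earlier results of these data known. The companion genes named are all called genes and the 2 largest changes per list averaging 5 CPM or more. Others are named for their role, apart from NFATC2, which is named for its value. For likeness, the 3 genes with the highest r to the member with the smallest p were named, among genes averaging 1 CPM or more.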

Additional observations from a re-analysis of the deposited data

How the results depend on the processing

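The 6 tested members kept their direction in all alternatives tried (15 each, 12 for TRPV2), and 0 were called except in DESeq2, which called 1 higher (TRPM4, 0.33). Without 1 library their log2 fold changes ran from 0.17 to 0.32 (MCOLN1), 0.25 to 0.38 (TRPM4), 0.22 to 0.44 (TRPM7), 0.10 to 0.33 (TRPC1), -0.35 to -0.05 (TRPV1) and 0.05 to 0.54 (TRPV2). Over all genes, calls higher and lower numbered 932 and 934 in DESeq2, 183 and 195 with no filter, 44 to 480 and 54 to 532 without 1 library (lowest without control replicate 2, highest without 6-shogaol replicate 1), and 3 and 0 with the replicate block. These calls numbered 320 and 338 with RLE scaling and 303 and 357 with upper-quartile scaling. With the filter of 1 CPM they numbered 421 and 435 of 14811 genes. Of 12591 genes limma called 399 higher and 292 lower on log2(FPKM + 1), and 344 and 239 on log2(FPKM + 0.1). With no filter limma called 352 and 239 of 32031 genes on log2(FPKM + 1). After group means were taken off, same-numbered libraries correlated at 0.00155, 0.135 and -0.0317. Differently numbered ones correlated at -0.154 to 0.150. With 3 replicates per group these values cannot tell whether equal numbers mark a shared culture or day. The block left 0 genes called in the store and magnesium lists. Calls higher in the store list numbered 1 with RLE or upper-quartile scaling and in each limma fit, 4 in DESeq2, 0 with no filter and 0 to 1 without 1 library. DESeq2 called 2 magnesium genes higher, 1 gene higher in the calcineurin, lysosome and ADP-ribose lists, 3 Gq genes lower, and 1 gene lower in the ADP-ribose and scaffold lists. The filter of 1 CPM gave 1 call higher in the lysosome and ADP-ribose lists and 1 lower in the Gq list. limma gave 1 higher in the ADP-ribose list in all 3 fits and 1 in the lysosome list in 2 of them (FPKM + 0.1, no filter), and 1 lower in the ADP-ribose list with no filter. Without 1 library, calls numbered 0 to 1 for lower Gq, lower store, higher magnesium and lower scaffold genes. PKD2 changed sign to -0.0074 without control replicate 1. The causes were not tested. Depth limits TRPV2, with 31 to 66 counts a library, and TRPV4, TRPM2 and TRPA1, with 0 to 7, which did not pass the filter.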

Other observations

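The lysosomal channels MCOLN1 and MCOLN2, compared after their values were seen, stood at unequal ratios. An exact permutation test of the ratio gave a two-sided p of 0.1. This is the smallest value it can give with 3 libraries per group, so it could not have fallen under 0.05. The FPKM of MCOLN1 over that of MCOLN2 was 4.08, 3.60 and 3.79 in 6-shogaol replicates 1, 2 and 3, against 2.64, 3.03 and 2.88 in control replicates 1, 2 and 3, with no overlap between the groups. Of single genes tested, 15.9% had all treated libraries above all controls in FPKM. No such share was taken for ratios, so the lack of overlap is a description only.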
